A study of Homo sapiens with 6 samples.

Results

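The 30 genes described here encode the machinery of macroautophagy and the receptors that bring cargo to it. They were taken by name from a deposited table of 26485 gene symbols, and all 30 had a row. Each also passed the filter on low counts, so that all 30 were among the 12107 tested genes. By role they comprised 4 initiation genes, 4 genes of the class III phosphatidylinositol 3-kinase (PI3K) complex, 5 genes of membrane delivery, 6 lipidation genes, 4 genes of the ATG8 family, 6 cargo receptors and 1 tethering factor.

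RNA was sequenced from H9, an established human T cell line that the labels describe as a cutaneous T lymphocyte. Treated cells received PA4, a compound known here only by this code name, at 1 µM for 24 h (PA4 replicates 1 to 3). Control cells carry the treatment label Control, and the protocol names DMSO as the vehicle (control replicates 1 to 3). The groups share the cell line and medium, and the labels name no genetic change. Whether each replicate was its own culture is not said, and the p-values below therefore cover the spread among 6 libraries, which may be technical. Library totals lay between 18282212 and 22875191 counts. Of 13 T cell markers, 9 had more than 100 counts in every library, while 6 to 12 counts fell on CD4 and at most 1 on CD2. Of 26 markers of other cell types, CD79A, CD79B, EPCAM and CDH1 passed 100 counts in every library. Besides these, COL1A1 alone among the 26 passed the filter on low counts, and of the T cell markers CD2 and CD4 did not. Of the markers that passed, 0 were called as changed, against 0.231% of all tested genes, and the others could not be called. The summed epithelial markers reached 2591 to 3199 counts in PA4 libraries and 2567 to 2603 in control libraries, nearly all of it EPCAM. Those of the B cell list reached 356 to 489 and 353 to 422 counts. These sums are raw counts, not scaled to library totals, and the largest total, 22875191, was that of PA4 replicate 2. In both groups the summed markers of natural killer cells, myeloid cells, fibroblasts and pluripotent stem cells stayed at or below 28 counts per library.

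In macroautophagy a double membrane closes around cytoplasm and delivers it to the lysosome. The ULK kinase complex starts the process, and the PI3K complex marks the forming membrane with phosphatidylinositol 3-phosphate. A conjugation system related to ubiquitination then attaches ATG8 proteins to phosphatidylethanolamine, and receptors such as p62 bind both ubiquitinated cargo and ATG8 proteins. Much of the pathway is set by phosphorylation, lipidation and protein turnover, which transcript counts do not measure. At the level of RNA, the factors TFEB and TFE3 are known to act through E-box-containing CLEAR motifs, FOXO factors through forkhead motifs, and NRF2 through antioxidant response elements, with SQSTM1 among its known targets.

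Promoter sequence is shown for GABARAPL1 and SQSTM1, the members with the lowest p-values, and for ATG3, ATG14 and MAP1LC3B as examples of members that hold one of those motifs, from RefSeq windows on GRCh38.p14 that run from 250 bases before to 50 bases after a gene start. Windows were found for 27 of the 30 genes, 35 windows in all, with none for BNIP3L, RB1CC1 and UVRAG. Capitals mark the motif named for each gene or, in SQSTM1, also its reverse complement CCGCCC, and sequences read 5′ to 3′ on the gene's strand.
ATG3, E-box CACGTG, chr3:112561963-112562010, minus strand: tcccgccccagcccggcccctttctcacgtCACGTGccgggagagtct
ATG3, CLEAR core TCACGTGA just past the start, chr3:112561940-112561969, minus strand: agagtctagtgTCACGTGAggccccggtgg
ATG14, E-box CACGTG, chr14:55411831-55411881, minus strand: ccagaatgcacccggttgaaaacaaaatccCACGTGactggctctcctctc
MAP1LC3B, antioxidant response element core TGACNNNGC, chr16:87392260-87392328, plus strand: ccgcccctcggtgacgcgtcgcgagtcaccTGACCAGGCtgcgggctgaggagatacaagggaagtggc
GABARAPL1, cAMP response element TGACGTCA, chr12:10212747-10212876, plus strand: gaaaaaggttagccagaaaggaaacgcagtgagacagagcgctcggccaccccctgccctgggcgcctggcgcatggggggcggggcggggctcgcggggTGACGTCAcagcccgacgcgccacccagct
SQSTM1, GC boxes GGGCGG at the most downstream of its 3 starts, chr5:179820775-179820904, plus strand: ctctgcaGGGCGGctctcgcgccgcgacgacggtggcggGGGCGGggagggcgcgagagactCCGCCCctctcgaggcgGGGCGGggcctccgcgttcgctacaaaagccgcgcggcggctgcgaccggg

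Motifs were sought on both strands. The E-box CACGTG, which is the centre of TCACGTGA and of the longer CLEAR palindrome, stood in the windows of 2 of the 27 genes (ATG3 and ATG14), against 8.77% of the 27305 genes with a window. TCACGTGA stood in ATG3 alone, against 1.18% of genes, and the longer palindrome in 0 of the 27, against 0.421%. The antioxidant response element core TGACNNNGC stood in 3 genes (CALCOCO2, MAP1LC3B and TECPR1), against 16.1%. It was absent from the 3 windows of SQSTM1, but sequence more than 250 bases before a start was not searched. The forkhead motif GTAAACA stood in 2 genes (CALCOCO2 and WDR45), against 4.19%. A further pair was searched after the sequences were seen. TGACGTCA stood in GABARAPL1 alone, against 2.25% of genes, and GGGCGG in 22 genes, against 48.3%. The 27305 genes include many outside the 12107 tested genes, whereas all 27 were tested. The shares are therefore not those of genes expressed in these cells. These letters describe the windows only and say nothing of whether a factor binds there.

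Autophagy transcripts stood at nearly the same level in PA4-treated and control cells. With edgeR's quasi-likelihood test and Benjamini-Hochberg adjustment over 12107 genes, an adjusted p under 0.05 was reached by 0 of the 30 genes in either direction. Of all tested genes 0.231% reached it, 0.215% higher and 0.0165% lower with PA4. DESeq2 also called 0 of the 30, but it gave ULK2 and WIPI1 no adjusted p, so these could not be called. It called 0.289% of all tested genes higher and 0.033% lower, shares that also count genes without an adjusted p. For limma-voom the count was 0 of the 30, where it called 0.206% higher and 0.0165% lower. The unadjusted edgeR p was under 0.05 in GABARAPL1 and SQSTM1, both higher with PA4, and in 0 members that were lower. That is 6.67% of the members, against 5.29% of all tested genes by the same rule (2.69% higher and 2.6% lower), so the share lies near the background. The same 2 members had an unadjusted p under 0.05 in DESeq2, against 2.69% of all tested genes, and in limma-voom, against 5.26%. Since these are bulk samples, fewer cells with a transcript and less of it per cell cannot be told apart.

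The median log2 fold change of the members, PA4 over control, was 0.016, against -0.0040 over all tested genes, and 18 were positive and 12 negative. Their fold changes ran from -0.11 for ATG14 to 0.18 for GABARAPL1. For 29 of 30 members the whole 95% interval was smaller than a 1.25-fold difference either way, a bound that 71.7% of all tested genes met. For all 30 it was smaller than 1.5-fold, a bound met by 10543 of the 12107 tested genes. The tested genes were not matched to the members in level. Their mean levels went down to 0.043 TPM, against 1.03 TPM for members, and their median SE was 0.069 log2, against 0.058. The exception at 1.25-fold was ULK2, the least abundant member, with an interval of 0.882-fold to 1.38-fold. In 5 members, or 16.7%, the 3 PA4 libraries lay wholly above or below the 3 control libraries, against 11.2% of all tested genes. PA4 was above in MAP1LC3B, GABARAPL1, SQSTM1 and TAX1BP1, a direction seen in 5.91% of all tested genes, and below in NBR1, a direction seen in 5.31%.

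**Figure D1:**
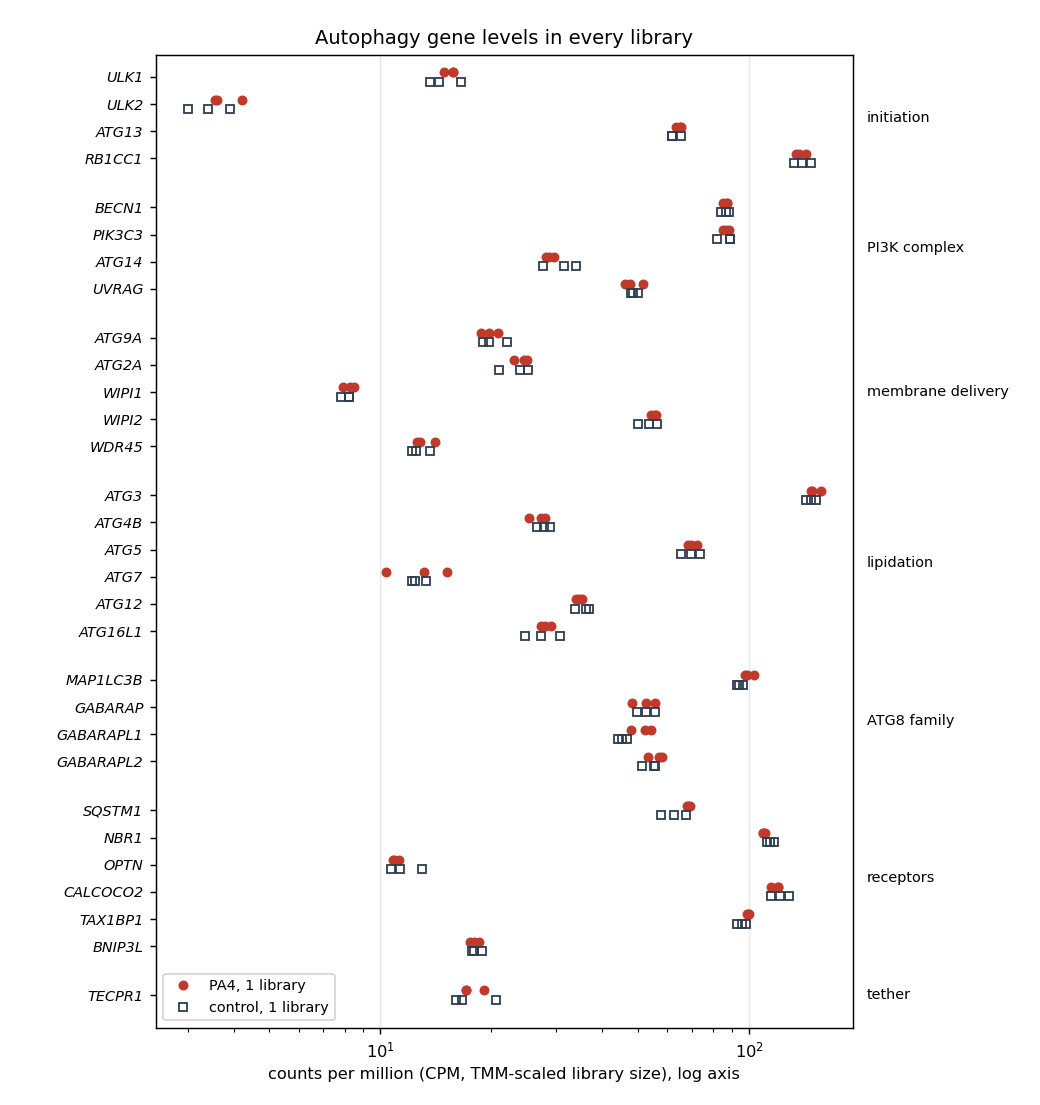
CPM of each member on a log axis, by role, with 1 filled circle for each PA4 library above 1 open square for each control library. The groups overlap in all members other than MAP1LC3B, GABARAPL1, SQSTM1 and TAX1BP1, where PA4 is higher, and NBR1, where PA4 is lower.

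**Figure D2:**
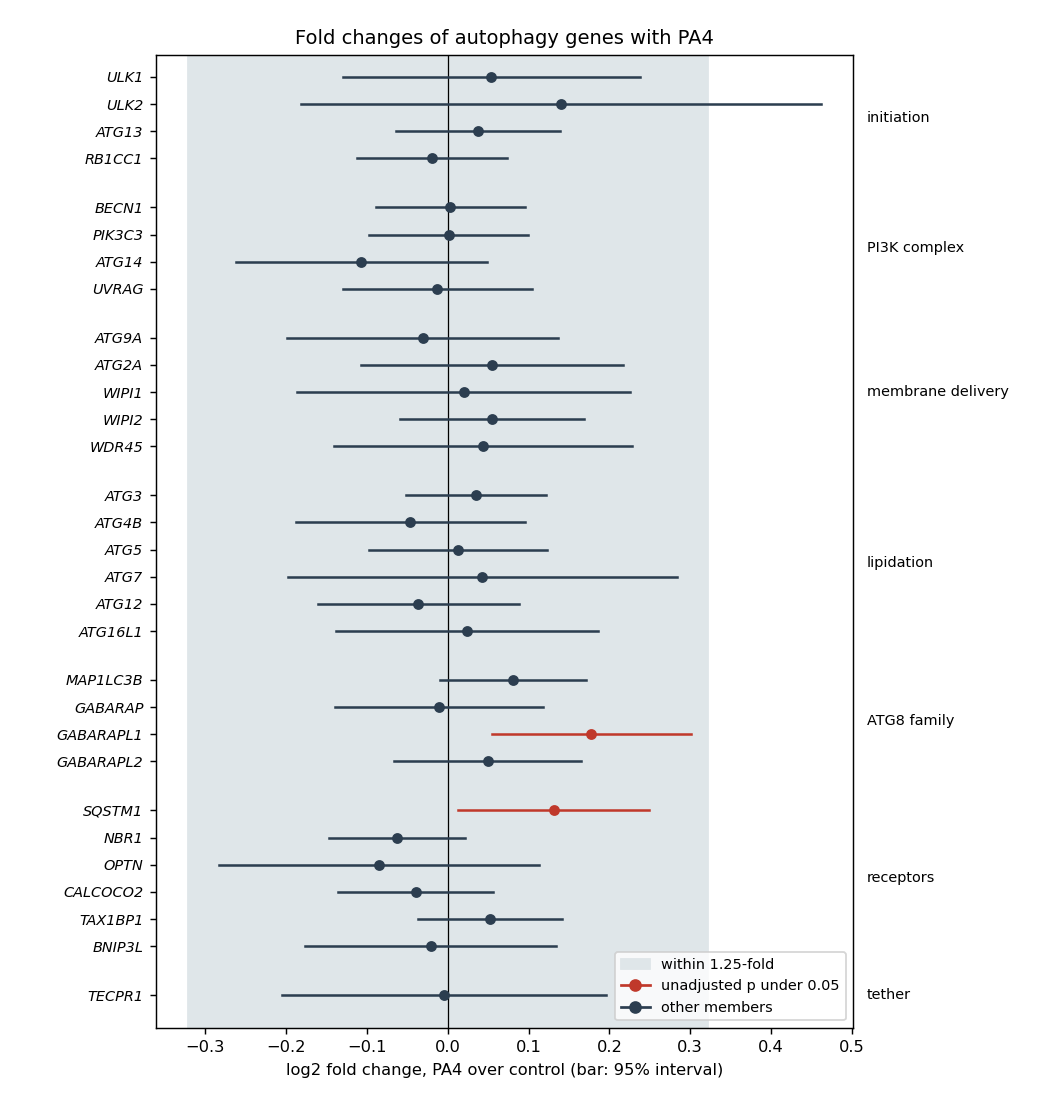
Log2 fold change of each member, PA4 over control, with its 95% interval, and a shaded band of 1.25-fold in both directions. The interval of ULK2 alone leaves the band, and the intervals of GABARAPL1 and SQSTM1 alone do not include 0.

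Levels can be compared between genes once counts are divided by gene length and scaled to the same total in every library (TPM). On that scale the members spanned 1.03 TPM for ULK2 to 153 TPM for GABARAP, as means over the 6 libraries. The most abundant were GABARAP, GABARAPL2 at 144 TPM, ATG3 at 127 TPM, MAP1LC3B at 111 TPM and BECN1 at 105 TPM. Neighbours in this order often lay within their spread, as for GABARAP, with 152.5 ± 10.3 TPM in PA4 and 153.9 ± 7.43 TPM in control libraries, and GABARAPL2, with 146 ± 6.86 and 141 ± 6.85 TPM (SD, n = 3 each). The least abundant after ULK2 were ATG7 at 6.61 TPM, ULK1 at 7.59 TPM, TECPR1 at 8.08 TPM and OPTN at 8.23 TPM. Within the lipidation genes the level thus ran from that of ATG7 to that of ATG3, its partner in the same reaction chain.

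Among the initiation genes 0 of 4 were called, and their median log2 fold change was 0.046. ULK1, the kinase that starts autophagy under the control of AMPK and mTORC1, had 15.7, 14.9 and 15.7 CPM (counts scaled to library size) in PA4 libraries and 16.6, 14.4 and 13.6 CPM in control libraries. The groups overlapped, and the log2 fold change was 0.054 ± 0.087 (SE). ULK2, its paralogue, had 4.21, 3.55 and 3.62 CPM in PA4 libraries and 3.00, 3.90 and 3.41 CPM in control libraries, again with overlap. ATG13 and RB1CC1, the scaffold subunits of the same complex (RB1CC1 is also named FIP200), were at 0.038 ± 0.048 and -0.019 ± 0.044 log2 (SE). RB1CC1 was the most abundant of the 4 by length, at 54.4 TPM.

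The PI3K complex had 0 of 4 called, with a median of -0.0058. The catalytic lipid kinase PIK3C3 had 86.5 ± 1.56 CPM in PA4 and 86.4 ± 4.03 CPM in control libraries, and the scaffold BECN1 had 86.4 ± 1.30 and 86.2 ± 2.36 CPM (SD, n = 3 each). These 2 had the smallest fold changes of the 30, at 0.0012 ± 0.046 and 0.0032 ± 0.043 log2 (SE). ATG14, the subunit that directs the complex to autophagosome formation, had 28.1, 29.5 and 28.7 CPM in PA4 libraries and 27.6, 31.6 and 33.9 CPM in control libraries. The log2 fold change was -0.11 ± 0.07 (SE), with an edgeR adjusted p of 0.988 and with control replicate 1 below all PA4 libraries. It was -0.18 without control replicate 1, where the unadjusted p was under 0.05 and the edgeR adjusted p 0.266, and -0.039 without control replicate 3, where OPTN at -0.14 was lower. UVRAG, the subunit of the endosomal form of the complex, was at -0.013 ± 0.055 log2 (SE).

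The 5 genes of membrane delivery, with 0 called, had a median of 0.043. ATG9A, the scramblase of the vesicles that seed the membrane, had 19.8 ± 1.05 CPM in PA4 and 20.2 ± 1.66 CPM in control libraries (SD, n = 3 each). ATG2A, a lipid transfer protein, was at 0.055 ± 0.077 log2 (SE). The proteins WIPI1, WIPI2 and WDR45 read phosphatidylinositol 3-phosphate, and WIPI2 recruits the lipidation machinery. Their log2 fold changes were 0.020 ± 0.097, 0.055 ± 0.054 and 0.043 ± 0.087 (SE), and their groups overlapped.

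Lipidation genes also had 0 of 6 called, and their median was 0.018. ATG7, which activates ATG12 and ATG8 proteins as an E1-like enzyme, had 13.2, 15.2 and 10.4 CPM in PA4 libraries and 12.2, 13.3 and 12.4 CPM in control libraries. Its PA4 libraries enclosed the control values on both sides. ATG3, the E2-like enzyme that hands ATG8 proteins to the lipid, had 147, 148 and 157 CPM in PA4 libraries and 142, 147 and 152 CPM in control libraries. ATG5, ATG12 and ATG16L1 form the E3-like complex and stood at 0.013 ± 0.052, -0.037 ± 0.059 and 0.024 ± 0.076 log2 (SE). ATG4B, the protease that primes ATG8 proteins and removes them from membranes, was at -0.046 ± 0.067 log2 (SE).

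In the ATG8 family, whose members tag the autophagosome membrane, 0 of 4 were called, 1 had an unadjusted p under 0.05 and the median was 0.065. GABARAPL1 (hg38, chromosome 12, 10212877 to 10223128 in RefSeq) had 52.3, 47.7 and 54.1 CPM in PA4 libraries and 46.8, 45.1 and 44.2 CPM in control libraries. The groups did not overlap, although PA4 replicate 2 lay close to control replicate 1. The log2 fold change was 0.18 ± 0.06 (SE), or 1.13-fold with an interval of 1.04-fold to 1.23-fold, with an unadjusted p of 0.00726 and an edgeR adjusted p of 0.628. MAP1LC3B, the gene of the widely used marker LC3B, had 97.6, 98.6 and 103 CPM in PA4 libraries and 92.7, 96.3 and 93.9 CPM in control libraries. Here too the groups did not overlap, and the change was 0.081 ± 0.043 log2 (SE), with an unadjusted p of 0.0774 and an edgeR adjusted p of 0.963. GABARAP and GABARAPL2 overlapped between groups, at -0.011 ± 0.061 and 0.050 ± 0.055 log2 (SE).

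Summed over the 4 genes, the family had 259, 255 and 264 CPM in PA4 libraries and 246, 250 and 243 CPM in control libraries. The PA4 sums lay above the control sums, which describes these genes and carries no test. Taken singly, MAP1LC3B and GABARAPL1 lay above control, while GABARAP and GABARAPL2 overlapped. The sums of each of the other roles and of all 30 members overlapped between groups. How often such sums lie apart was not computed, but PA4 lay above control in 5.91% of all tested genes. The receptors summed to 425, 427 and 420 CPM in PA4 libraries and 416, 430 and 425 CPM in control libraries, and all members to 1614, 1609 and 1625 CPM in PA4 libraries and 1575, 1610 and 1609 CPM in control libraries. As a share of the family's TPM, GABARAPL1 made up 14.8% ± 0.856 in PA4 and 13.6% ± 0.344 in control libraries, while MAP1LC3B made up 23.5% ± 0.668 and 23.1% ± 0.400 (SD, n = 3 each). The largest share was that of GABARAP, at 31.5% ± 2.37 in PA4 and 33.0% ± 1.54 in control libraries. Of the sequence of MAP1LC3B, 10.0% of its 50-base words also occur in MAP1LC3B2, so reads can be shared, but MAP1LC3B2 had 8 to 21 counts against 1789 to 2248 for MAP1LC3B. For GABARAPL1 the shared part with the copy GABARAPL3 was 0.579%.

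Cargo receptors had 0 of 6 called, 1 with an unadjusted p under 0.05 and a median of -0.030, with 2 positive and 4 negative fold changes. SQSTM1, the gene of p62 (hg38, chromosome 5, 179806393 to 179838078), had 68.4, 69.3 and 68.0 CPM in PA4 libraries and 67.6, 62.6 and 57.6 CPM in control libraries. Control replicate 1 lay just below the PA4 libraries and control replicate 3 well below them. The log2 fold change was 0.13 ± 0.06 (SE), with an unadjusted p of 0.0314 and an edgeR adjusted p of 0.920. It was 0.19 without control replicate 1 and 0.076 without control replicate 3, and its adjusted p over the alternatives ran from 0.0994 without control replicate 1 up to 1.00 in DESeq2. Its unadjusted p was above 0.05 without PA4 replicate 1, PA4 replicate 2, control replicate 2 or control replicate 3.

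NBR1, a receptor that works with p62 on ubiquitinated cargo, had 110, 109 and 109 CPM in PA4 libraries and 112, 117 and 114 CPM in control libraries. The groups did not overlap, yet the difference was small, at -0.063 ± 0.040 log2 (SE) with an edgeR adjusted p of 0.985. TAX1BP1 was the reverse case, with 99.0, 100.1 and 98.4 CPM in PA4 libraries and 92.8, 98.3 and 95.9 CPM in control libraries, or 0.052 ± 0.042 log2 (SE). OPTN and CALCOCO2, which like TAX1BP1 act in the clearance of bacteria and mitochondria, were at -0.086 ± 0.094 and -0.040 ± 0.045 log2 (SE). BNIP3L, the mitophagy receptor NIX, had 17.9 ± 0.496 CPM in PA4 and 18.2 ± 0.613 CPM in control libraries (SD, n = 3 each). TECPR1, a tether between autophagosome and lysosome, had 17.7 ± 1.20 CPM in PA4 and 17.8 ± 2.44 CPM in control libraries (SD, n = 3 each).

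**Figure D3:**
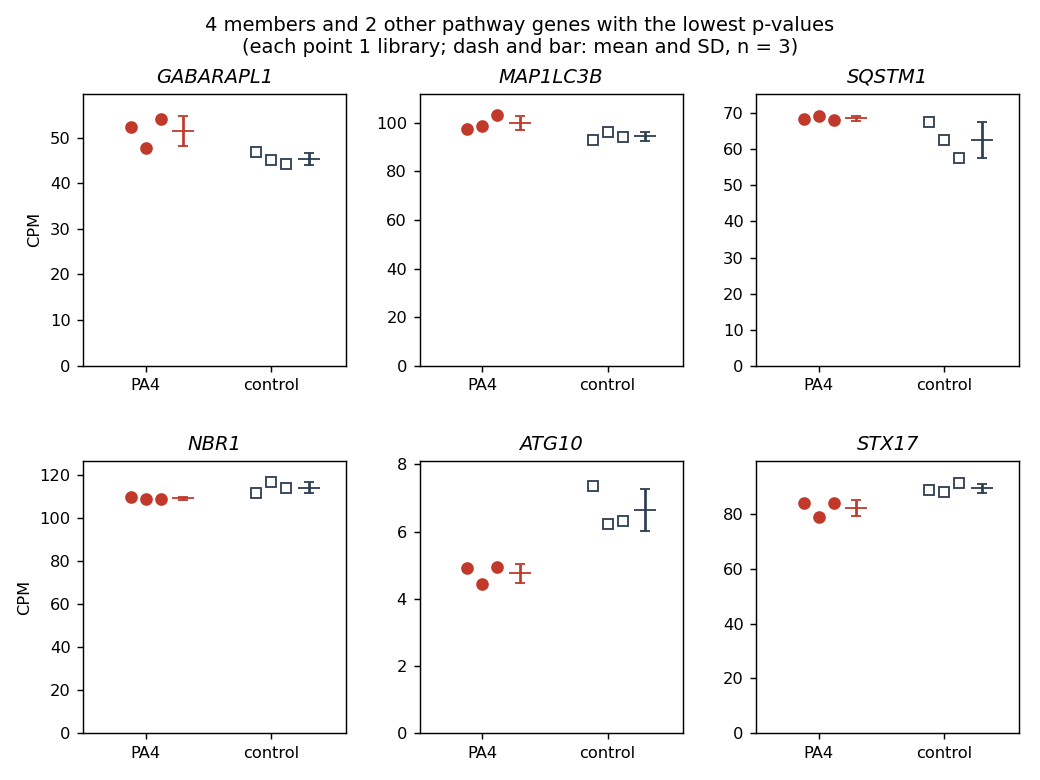
CPM of the 4 members and the 2 other pathway genes with the lowest p-values, 1 point per library, with the mean and SD of 3 libraries beside them and axes starting at 0. PA4 is on the left of each panel, above control in GABARAPL1, MAP1LC3B and SQSTM1 and below it in NBR1, ATG10 and STX17, and none of the 6 was called.

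A further 67 genes of the pathway were examined, from upstream kinases to the factors of fusion with the lysosome, and 60 passed the filter on low counts. Of these, 0 were called in either direction by edgeR, DESeq2 or limma-voom, although DESeq2 gave no adjusted p for ATG10. The unadjusted p was under 0.05 in 2, both lower with PA4, which is 3.33% of the 60 against 5.29% of all tested genes. With offsets for GC content the count was 4, with ATG10, STX17 and PRKAA1 lower and FOXO3 higher, where 10.3% of all tested genes had such a p. Without control replicate 1 it was 5, but the share of all tested genes was not computed for that fit. At an adjusted p under 0.05 the same fit called 74 of 12233 genes, against 28 of 12107 in the reported fit. In the reported fit the median log2 fold change of the 60 was -0.014, with 25 positive and 35 negative. The interval of 57 of the 60 lay within 1.5-fold, as did that of 10543 of the 12107 tested genes. The groups did not overlap in 8, or 13.3%, against the same 11.2%.

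ATG10, the E2-like enzyme that joins ATG12 to ATG5, was the lowest in p (hg38, chromosome 5, 81972023 to 82256133). It had 4.90, 4.43 and 4.93 CPM in PA4 libraries and 7.35, 6.24 and 6.30 CPM in control libraries. All PA4 values lay below all control values, with a log2 fold change of -0.48 ± 0.12 (SE), or 0.715-fold with an interval of 0.598-fold to 0.856-fold. The unadjusted p was 0.00111 and the edgeR adjusted p 0.238, and over the alternatives with a value the adjusted p was 0.0523 or higher. The gene rested on 90 to 142 counts per library, and 6.86% of its exon bases overlap RPS23 on the opposite strand, which had 11508 to 14096 counts and a log2 fold change of 0.016 ± 0.029 (SE). As the strand setting of the counting is not given in the sources used here, reads of the 2 genes in the overlap cannot be told apart.

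STX17, the SNARE that drives fusion of the closed autophagosome with the lysosome, had 84.1, 79.0 and 84.0 CPM in PA4 libraries and 88.9, 88.3 and 91.5 CPM in control libraries. The groups did not overlap, and the change was -0.12 ± 0.04 log2 (SE), with an unadjusted p of 0.0155 and an edgeR adjusted p of 0.794. The adjusted p was 0.122 with offsets for GC content and, at its lowest over the alternatives, 0.0972 with the replicate block added to them. The transcription factors of the pathway, named after their values were seen, were not called. TFEB, at 3.28 ± 0.592 CPM in PA4 and 3.32 ± 0.307 CPM in control libraries (SD, n = 3 each), was at -0.0052 ± 0.17 log2 (SE). TFE3 was at 0.045 ± 0.082 log2 (SE), MITF at 0.16 ± 0.14 and FOXO3 at 0.083 ± 0.042. FOXO1 was at 0.0036 ± 0.063 log2 (SE) and ZKSCAN3 at 0.065 ± 0.12. In FOXO3 alone among these factors the PA4 libraries lay above the control libraries, a direction seen in 5.91% of all tested genes. In the others the groups overlapped.

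**Figure D4:**
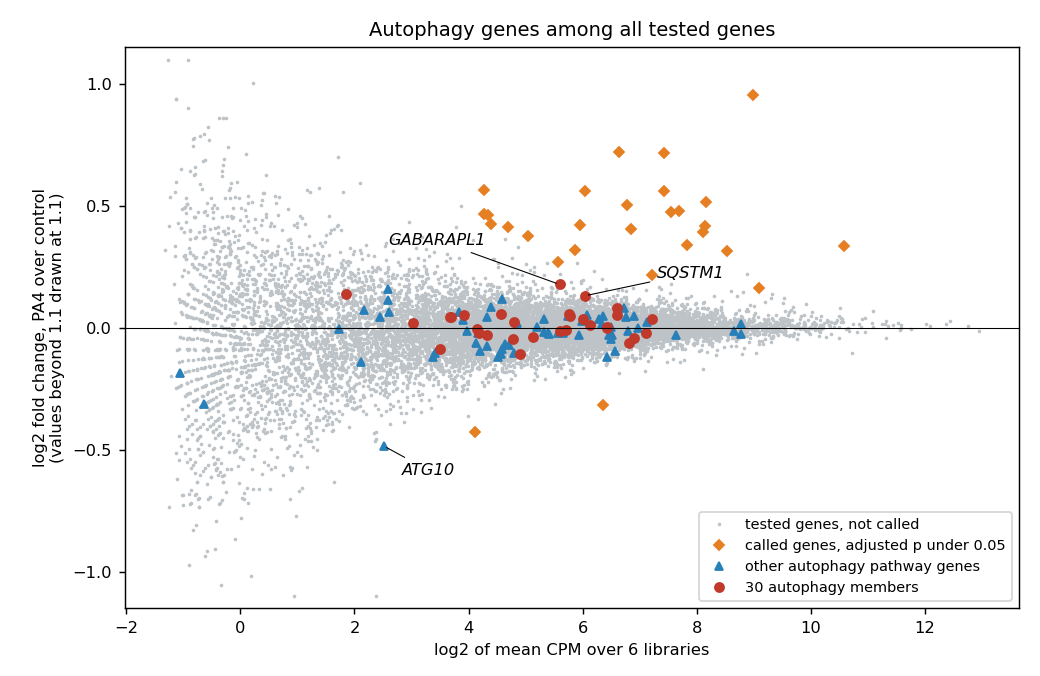
Log2 fold change, PA4 over control, against the log2 of the mean CPM for 12107 tested genes, with the 30 members, the 60 other pathway genes and the 28 called genes marked, and with values beyond the axis drawn at its edge. The members and other pathway genes lie among the genes that were not called, and GABARAPL1 and SQSTM1, at percentiles 94.7 and 92.1 of the log2 fold change, and ATG10 are named.

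Libraries of the control group differed from each other along the GC content of transcripts. Over the 30 members, the log2 ratio between control replicates 1 and 3 had a Spearman rho of 0.811 with GC content, a description across genes that share these 2 libraries. Over 8251 genes of known GC content that passed a minimum mean CPM of 10 the rho was 0.788, and for the log2 fold change of PA4 over control it was -0.024. ULK1, with a GC content of 64.2%, and SQSTM1, with 58.0%, were higher in control replicate 1, whereas RB1CC1, with 37.6%, was higher in control replicate 3. With GC content taken into account by offsets, SQSTM1 was at 0.14 ± 0.04 log2 (SE), with an edgeR adjusted p of 0.112, and GABARAPL1 at 0.17 ± 0.05, with an adjusted p of 0.117. At an unadjusted p under 0.05 that fit gave 4 members, MAP1LC3B and NBR1 besides these, which is 13.3% against 10.3% of all tested genes.

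**Figure D5:**
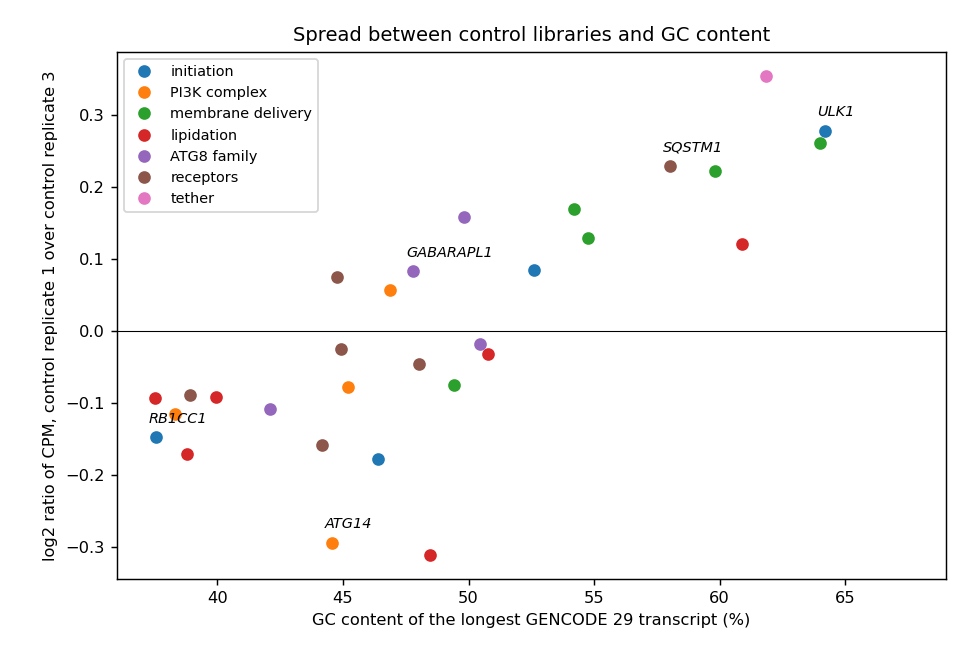
Log2 ratio of CPM in control replicate 1 over control replicate 3 against the GC content of the longest transcript, 1 point per member, coloured by role. Members rich in GC, such as ULK1 and SQSTM1, lie above 0 and members poor in GC, such as RB1CC1, lie below it.

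Exons of 13 of the 30 members share bases with another gene of the table. Counts of these members can include reads of the other gene or lack reads of their own, depending on counting settings that are not given. The share was over 10% of exon bases in 4 of them. It was 24.3% for WIPI1 with ARSG, 18.1% for ATG7 with VGLL4 and 12.4% for BECN1 with CNTD1, all on the opposite strand. On the same strand it was 13.9% for WDR45 with PRAF2. Few counts fell on CNTD1, at 0 to 2 per library, and 0 on CCDC3, the gene that overlaps OPTN. The shares refer to GENCODE exons, which can exceed the deposited gene model, as for BECN1 with 6414 against 2143 bases. For SQSTM1 it was 1.37%, with MGAT4B on the opposite strand, and for MAP1LC3B 2.82%, with FBXO31 on the opposite strand. Of the 50-base words of ATG9A 44.8%, and of those of GABARAP 42.0%, also occur in transcripts of other genes of GENCODE release 29. The gene that shares most of them is in neither case a row of the deposited table, and how reads with several alignments were counted is not stated, so the levels of ATG9A and GABARAP are uncertain.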

How the data were processed

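Polyadenylated RNA of 6 H9 libraries was measured. The authors deposited raw counts of reads per gene, with 1 column per library and no normalization or pooling, and the length of each gene model, per the file headers. The submitters' processing notes name Trimmomatic 0.39, fastp 0.23.2, STAR 2.7.9a, featureCounts of Subread 1.6.4 and build hg38. Which annotation, strand setting and treatment of multiple alignments was used is not given in the sources used here.

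The whole table was fitted with edgeR 4.0.16 (R 4.3.3). filterByExpr kept 12107 genes, TMM scaled the libraries, and estimateDisp, glmQLFit and glmQLFTest compared PA4 with control, two-sided, with no covariate and Benjamini-Hochberg adjustment over all tested genes. Calls needed an adjusted p under 0.05. CPM are counts scaled to the TMM-adjusted library size, and TPM were computed from counts and deposited lengths over all genes. Standard errors and 95% intervals come from the F statistic. The common biological coefficient of variation reached 3.92%. No library was a copy of another (chi-square over its degrees of freedom 1.48 to 6.81 between libraries).

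All 30 members are named, with other pathway genes that were called or had an unadjusted p under 0.05 (at most 10). Members and lists were chosen with earlier results of these data known. Of the 67 pathway genes, RUBCN and RETREG1 matched through older symbols. Alternatives were DESeq2 1.42.0, limma-voom (limma 3.58.1), other scalings and filters, a replicate block, GC offsets from GENCODE release 29 transcripts and leaving out each library. Exon overlap used GENCODE release 29, and the gene coordinates given are those of RefSeq.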

Additional observations from a re-analysis of the deposited data

How the results depend on the processing

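Across the 16 alternative settings 0 of the 30 members and 0 of the other pathway genes were called, and the lowest edgeR adjusted p of a member was 0.0934, for GABARAPL1 with the replicate block and GC-content offsets together. The members' median log2 fold change stayed between 0.010 and 0.020. The sign of a member that was not called changed in 41 of 480 values, 29 of them from fits that leave out 1 library, in 17 genes whose reported log2 fold change was at most 0.055 in size. Over all tested genes the calls moved more, against 26 higher and 2 lower in the reported fit. They were 53 and 9 with no low-count filter, 50 and 9 with the replicate block, 81 and 17 with GC-content offsets and 92 and 22 with both. DESeq2's Wald test gave 4 lower, counts thinned to equal depth (an alternative chosen after the data were seen) gave 1 lower, and fits without 1 library called from 16 to 50 genes higher and from 1 to 24 lower, the most without control replicate 1 and the fewest higher without control replicate 2. The cause was not tested. The replicate numbers are not shown to pair the libraries, since the deviations from the group means correlated at 0.16, -0.088 and 0.42 for numbers 1, 2 and 3, and PA4 replicate 2 correlated best with control replicate 1. Counts of ULK2, at 58 to 85 per library, limit its interval, and DESeq2 gave ULK2, WIPI1 and ATG10 no adjusted p.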

Other observations

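Some paralogues of the members had no or few reads. MAP1LC3A and MAP1LC3C had 0 counts in all 6 libraries, as did PRKAA2, a catalytic subunit of AMPK, WDFY3, a scaffold of aggregate clearance, and STBD1, a receptor for glycogen. A count of 0 allows up to 3 counts per library, for counting error only. ATG9B had at most 1 count, whereas its paralogue ATG9A had 343 to 449, and the mTOR inhibitor gene DEPTOR had 6 to 12 counts. PRKAA1, the other catalytic subunit of AMPK, had 92.1 ± 4.52 CPM in PA4 and 98.2 ± 7.10 CPM in control libraries (SD, n = 3 each), and was not called. These genes were named after their values were seen.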
